A study of Mus musculus with 4 samples.

Results

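Gene-dense domains are the stretches of the mouse autosomes where protein-coding genes lie most tightly packed. A window of 100 kb was counted as gene-dense when 25 or more protein-coding genes of the GRCm38 RefSeq annotation overlapped it or the 500 kb on either side, leaving out olfactory (Olfr) and vomeronasal (Vmn) receptor genes. Of 94694 full-length autosomal windows with a value in all 4 libraries, 7067 were gene-dense (7.46%). Of the 23672 windows spaced 100 kb, which do not overlap, 1780 were gene-dense and 21892 were not. The latter are called other windows below. The rule used gene positions only and no measured value.

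DNA replication was profiled by TrAEL-seq, a method that ligates an adaptor to free DNA 3′ ends such as those at replication forks, in mouse embryonic stem cells of the line 129S6/SvEvTac grown with serum and LIF. The groups were 2 wild-type (WT) libraries and 2 Snf2h knockout (KO) libraries. Snf2h, the gene Smarca5, encodes the ATPase motor of the ISWI chromatin remodellers. The labels do not describe the knockout allele, say whether the KO cells are 1 clone, or give any treatment or time. No RNA was measured, so neither the loss of Snf2h nor the stem cell state could be checked here. Each genotype was cultured in duplicate per the series' design, and p-values measure only the spread between these libraries. WT replicate 2 carries 1 index in its label and another in the header of the table. Each value is a signed strand imbalance in percentage points (points), called polarity, between -50 and 50. Depth is unknown, since the values come without read counts, and a window's coverage can be read only from whether it has a value. Of 7156 gene-dense windows before that filter, 89 (1.24%) lacked a value in some library, against 4.01% of other windows.

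Replication forks leave initiation zones in both directions, so the strand bias of fork-associated ends changes sign at such a zone and changes back where forks from neighbouring zones meet. A stretch in which polarity climbs along the chromosome is called a rise, and a stretch in which it declines is called a fall. Which of them marks initiation depends on the strand counted as positive, which the table does not state. In mammalian cells, gene-rich chromatin is known to replicate mostly early in S phase and gene-poor chromatin mostly late.

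The sequences below give examples of gene starts near the middle of the largest rises in gene-dense windows, whose position the 25 kb spacing of windows leaves uncertain by more than the distances given. They are the 250 bases before the start of the gene whose start lay nearest the midpoint of each of the 3 largest rises, from RefSeq on GRCm38.p6, 5′ to 3′ on the strand of the gene, with CG dinucleotides in capitals.
Klhl33, chr14:50897484-50897733, minus strand: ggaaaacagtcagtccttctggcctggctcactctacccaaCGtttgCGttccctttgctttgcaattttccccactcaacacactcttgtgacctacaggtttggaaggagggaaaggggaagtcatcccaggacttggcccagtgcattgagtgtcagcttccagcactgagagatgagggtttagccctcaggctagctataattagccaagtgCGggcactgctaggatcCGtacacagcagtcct
Gm13290, chr4:88773584-88773833, plus strand: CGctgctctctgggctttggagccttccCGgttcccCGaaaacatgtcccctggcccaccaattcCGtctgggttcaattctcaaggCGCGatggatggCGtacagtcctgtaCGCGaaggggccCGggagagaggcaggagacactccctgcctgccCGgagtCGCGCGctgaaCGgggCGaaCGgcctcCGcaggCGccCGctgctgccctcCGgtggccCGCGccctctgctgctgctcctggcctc
Dixdc1, chr9:50727985-50728234, minus strand: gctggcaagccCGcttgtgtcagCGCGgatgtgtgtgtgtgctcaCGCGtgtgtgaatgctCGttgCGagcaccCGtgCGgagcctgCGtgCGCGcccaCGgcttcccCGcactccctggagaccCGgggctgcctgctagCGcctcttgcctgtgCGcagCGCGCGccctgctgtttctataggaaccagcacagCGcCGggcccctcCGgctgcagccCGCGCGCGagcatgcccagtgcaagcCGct
The start of Klhl33, a Kelch-like gene, lay 2.52 kb from the midpoint of its rise, and its upstream sequence held 4 CG dinucleotides at 52.4% GC. The start of Gm13290, within the type I interferon cluster, lay 1.17 kb from the midpoint, with 23 CG dinucleotides at 68.4% GC. The start of Dixdc1, which encodes a DIX domain protein of Wnt signalling, lay 2.98 kb from the midpoint, with 28 CG dinucleotides at 70% GC. The 3 sequences thus ranged from CG-poor to CG-rich. Promoter entries of 300 bases were found for 5078 of 6331 genes in gene-dense domains (80.2%). Their median GC content was 58.0%, against 57.7% for other genes. The motif TATAAA, read on both strands, was in 10.7% of these promoters and in 10.9% of all promoters. The motif GGGCGG, read on both strands, was in 51.6% and 50.1%. These shares describe the sequences and were not tested.

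Runs of gene-dense windows formed 232 domains, from 0.1 to 6.42 Mb long with a median of 0.463 Mb, and 79 were at least 1 Mb. With all their windows they covered 194 Mb, 7.88% of the autosomes, and held 6331 of 19203 counted genes (33.0%). A gene-dense window had 25 to 80 counted genes in its 1.1 Mb of window and flanks, with a median of 33. A mean of 3.99 genes overlapped the window itself, and 2.43% of gene-dense windows had none, against 39.3% of other windows. Genes in the domains were short, with a median length of 10.7 kb against 27.3 kb elsewhere, and 2.56% were longer than 100 kb against 16.7%. Chromosome 11 had 18.1% of its windows in such domains and chromosome 1 had 1.96%.

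Several clustered gene families lay mostly inside these domains, where the share over all counted genes was 33.0%. The genes of a cluster count toward the 25-gene rule themselves, so this follows in part from the rule. The domains held 111 of 112 keratin (Krt) genes, which encode epithelial intermediate filaments, and 26 of 27 kallikrein (Klk) protease genes. They also held 66 of 72 histone genes and 32 of 38 H2- genes of the major histocompatibility complex. Protocadherin (Pcdh) genes, which encode neuronal adhesion proteins, were inside for 59 of 67. Other families were inside less completely, as for 19 of 39 Hox genes, 40 of 91 ribosomal protein (Rpl and Rps) genes and 170 of 391 Zfp zinc-finger genes. Cyp genes were inside for 42 of 99 and defensin genes (Defb) for 21 of 42. Serpin genes, at 21 of 62 (33.9%), and chemokine genes (Ccl and Cxcl), at 12 of 37 (32.4%), lay near the share over all counted genes. Among RNA genes, 252 of 391 tRNA genes (64.5%), 330 of 1136 miRNA genes (29.0%) and 12.6% of lncRNA genes overlapped the domains.

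The first comparison asked how strongly polarity varies inside gene-dense domains. Its SD over the 1780 gene-dense windows was 12.9 and 11.3 points in the WT libraries and 17.6 and 13.2 points in the KO libraries. Over other windows it was 14.8 and 12.9 points for WT and 19.6 and 14.6 points for KO. Each library thus had a lower amplitude in gene-dense windows, by a factor of 0.872, 0.873, 0.899 and 0.899 in the same order. The mean factor was 0.886, and the exact two-sided sign-flip permutation test over the 4 libraries gave p = 0.13, the smallest it can give. Adjusted over the 13 planned tests by Benjamini-Hochberg that p was 0.406, so no such comparison could pass 0.05. The mean log2 ratio of -0.17 was -0.05 with Olfr and Vmn genes counted and -0.40 by interquartile range in place of the SD. The factor was below 1 in all 4 libraries on 16 of 19 chromosomes, and the exceptions were chromosomes 13, 14 and 18. Just below the gene threshold, the 166 windows with 24 genes had SDs of 14.3, 12.5, 19.2 and 14.6 points, and the 154 windows with 25 genes had 12.3, 11.3, 17.1 and 12.5 points.

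Amplitude did not follow gene density in 1 direction. As the mean of the 4 libraries, the SD was 10.7 points in windows with no counted gene in their 1.1 Mb, 17.4 points with 5 to 9 genes, 14.1 points with 25 to 34 and 13.2 points with 35 to 80. All 4 libraries had their highest value at 5 to 9 genes, as the plot by gene density shows.

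**Figure D1:**
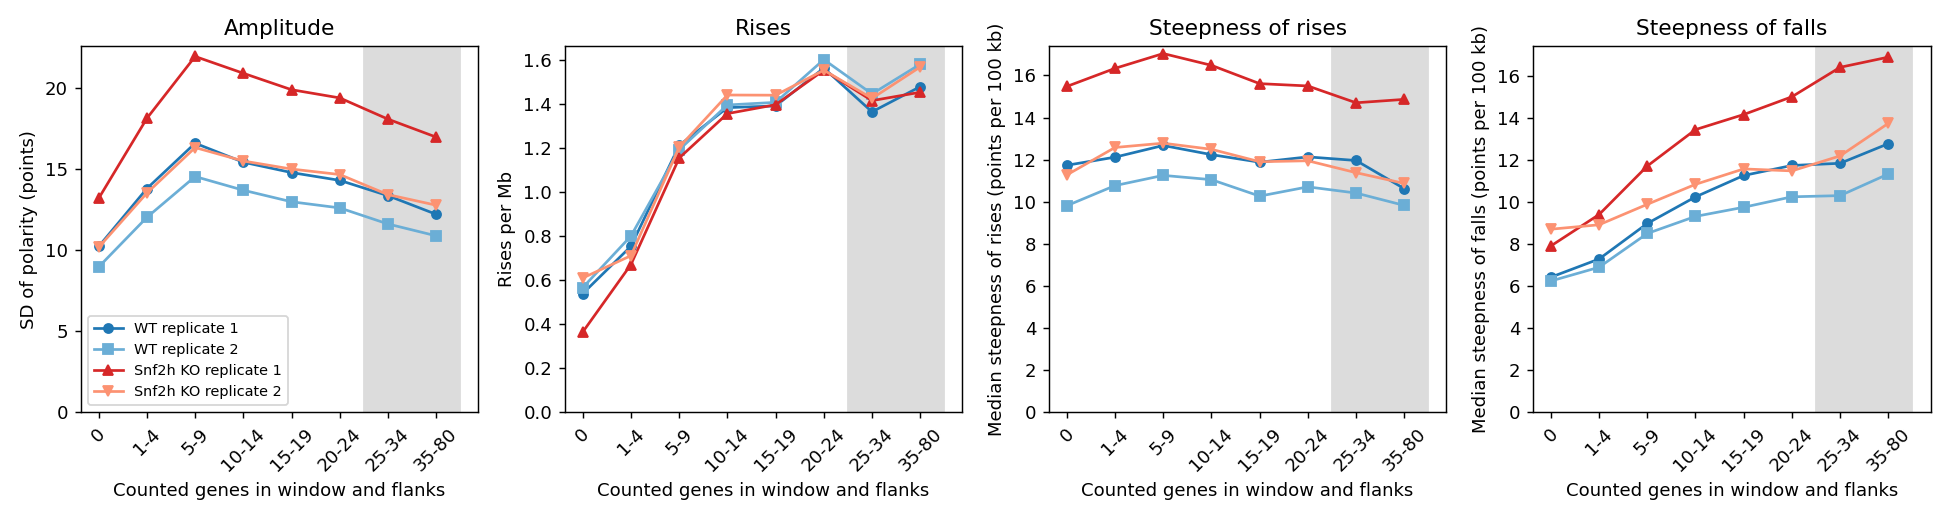
Amplitude (SD of polarity, points), rises per Mb, and the median steepness of rises and of falls (points per 100 kb) in each library, against the number of counted genes in the window and its flanks, with the gene-dense classes shaded. The SD is highest at 5 to 9 genes and lower in the shaded classes, whereas the steepness of falls is highest at 35 to 80 genes in each library.

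KO and WT amplitudes in gene-dense windows differed by 3.30 points, with a pooled replicate SD of 2.36 points (n = 2 each). The KO libraries both exceeded the WT libraries, but KO replicate 2, at 13.2 points, was close to WT replicate 1, at 12.9 points. The exact two-sided permutation test over the 6 label orders gave p = 0.33, the smallest that 2 against 2 can give. Without KO replicate 1 the difference was 1.07 points, without KO replicate 2 it was 5.52 points, and with each library divided by its SD over all autosomal windows it was 0.025 in SD units. The signal shared by replicates (the square root of their covariance) had an SD of 11.7 points for WT and 14.6 points for KO, a ratio of 1.25, against 1.21 in other windows. The gene-dense to other ratio itself was higher in KO by 0.04 on the log2 scale (p = 0.33, same exact test), with a replicate SD of 0.00104, and by 0.01 with Olfr and Vmn genes counted. On single chromosomes, KO replicate 1 lay above both WT libraries on all 19, and for 7 of them KO replicate 2 fell between the WT values.

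Polarity changed more per 100 kb in gene-dense windows than over all other windows together. The mean absolute change between windows 100 kb apart was 10.3 and 9.19 points for WT and 13.8 and 10.5 points for KO, against 8.71, 8.02, 11.2 and 9.54 points for pairs of other windows. The change was thus greater in gene-dense windows in 4 of 4 libraries, 1.17-fold on average or 0.22 on the log2 scale, which was 0.12 for windows 200 kb apart (exact two-sided sign-flip permutation p = 0.13, adjusted 0.406). Windows with 20 to 24 genes had a mean of 11.3 points over the 4 libraries, those with 25 to 34 had 11.2 and those with 35 to 80 had 10.8, so the nearest class below the threshold shared the trait. Relative to amplitude the gap was wider, since the change per 100 kb was 0.798, 0.812, 0.783 and 0.802 of the SD in gene-dense windows and 0.59, 0.62, 0.57 and 0.652 of it elsewhere. KO exceeded WT by 2.45 points in gene-dense windows (replicate SD 1.71, n = 2 each, exact permutation p = 0.33), and the libraries did not overlap. That difference was 0.821 points without KO replicate 1 and 4.07 without KO replicate 2, and after division by each library's SD it was 0.00887 in SD units and the libraries overlapped. The gene-dense to other ratio of these changes differed between genotypes by 0.01 on the log2 scale (exact permutation p = 1), within a replicate SD of 0.08.

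Rises were more frequent in gene-dense windows than over all other windows together. A rise was a stretch in which the running mean of 5 windows climbed without a turn by at least 1 SD of that library, and it was placed by its midpoint. Gene-dense windows held 250 and 266 rises for WT and 253 and 263 for KO, or 1.42, 1.51, 1.43 and 1.49 per Mb. Other windows held 1.05, 1.07, 0.988 and 1.05 rises per Mb. The excess was 0.363, 0.436, 0.444 and 0.436 per Mb, mean 0.420 ± 0.0379 (SD, n = 4; exact two-sided sign-flip permutation p = 0.13, adjusted 0.406). With a running mean of 9 windows it was 0.135 per Mb. The nearest class below the threshold shared this frequency: windows with 20 to 24 genes had 1.57 rises per Mb as the mean of the 4 libraries, those with 25 to 34 had 1.41 and those with 35 to 80 had 1.52. Rises were more frequent than in other windows in all 4 libraries on 17 of 19 chromosomes, all but 6 and 12. The mean number of rises per Mb was the same in both genotypes, with a difference of 0 and a replicate SD of 0.0534 (exact permutation p = 1). Counted at a fixed minimum of 15 points in place of 1 SD, KO exceeded WT by 0.249 per Mb, and with a running mean of 3 windows KO minus WT was -0.0736 per Mb. The excess over other windows differed between genotypes by 0.0406 per Mb (replicate SD 0.0364, exact permutation p = 0.33), and this difference was below 0 with a running mean of 3 windows or a minimum of 0.5 SD.

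Replicates placed rises at similar positions. In gene-dense windows 85.4% of rises had a rise of the other replicate within 100 kb, and 82.5% had one in a library of the other genotype. For other windows these shares were 86.6% and 81.4%. Polarity over the 1780 gene-dense windows correlated at r = 0.938 between WT libraries, 0.921 between KO libraries and 0.900 on average between genotypes, as a description across windows of the same genome.

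Rises and falls differed in shape. The median steepness of rises in gene-dense windows was 11.4 and 10.1 points per 100 kb for WT and 14.8 and 11.2 for KO, against 12.3, 10.9, 16.3 and 12.4 in other windows. Rises were thus shallower in gene-dense windows than over all other windows together in each library, 0.917-fold on average (exact sign-flip permutation p = 0.13, adjusted 0.406). By gene density, the mean over the 4 libraries was 12.1 points per 100 kb with no counted gene and 13.4 at 5 to 9 genes. It was 12.4 at 15 to 19 genes, 12.6 at 20 to 24, 12.1 at 25 to 34 and 11.5 at 35 to 80. Windows without genes and those just below the threshold thus had rises nearly as shallow. The mean log2 ratio of -0.13 was -0.23 with a running mean of 9 windows and -0.07 at a minimum of 0.5 SD. Rises in gene-dense windows were also smaller, with a mean height of 25.8, 22.5, 34.3 and 25.8 points against 30.6, 26.7, 41.1 and 29.7 points. KO rises in gene-dense windows were steeper than WT rises by 2.27 points per 100 kb (replicate SD 1.89, n = 2 each, exact permutation p = 0.667), by 0.498 without KO replicate 1 and by 4.04 without KO replicate 2. The KO and WT libraries overlapped, since KO replicate 2 lay below WT replicate 1, and after division by each library's SD the difference was below 0.

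Falls went the opposite way. Their median steepness was 12.0 and 10.6 points per 100 kb for WT and 16.5 and 12.6 for KO, against 8.69, 8.07, 11.2 and 9.88 in other windows. Falls were thus 1.36-fold steeper in gene-dense windows than over all other windows together, and steeper in 4 of 4 libraries (exact sign-flip permutation p = 0.13). The classes just below the threshold had falls nearly as steep, with a mean over the 4 libraries of 11.7 at 15 to 19 genes and 12.1 at 20 to 24, against 12.7 at 25 to 34 and 13.7 at 35 to 80. Their median length was 225, 225, 225 and 200 kb, against 300, 275, 300 and 250 kb elsewhere. In gene-dense windows the median fall was 1.05, 1.05, 1.12 and 1.12 times as steep as the median rise, whereas in other windows it was 0.705, 0.743, 0.69 and 0.794 times as steep. Falls numbered 207, 205, 209 and 207, or 1.16 to 1.18 per Mb, fewer than rises in each library. The comparisons of falls, of heights, of the genes at rises and falls and of domain edges were chosen after the data were seen and are outside the 13 planned tests.

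**Figure D2:**
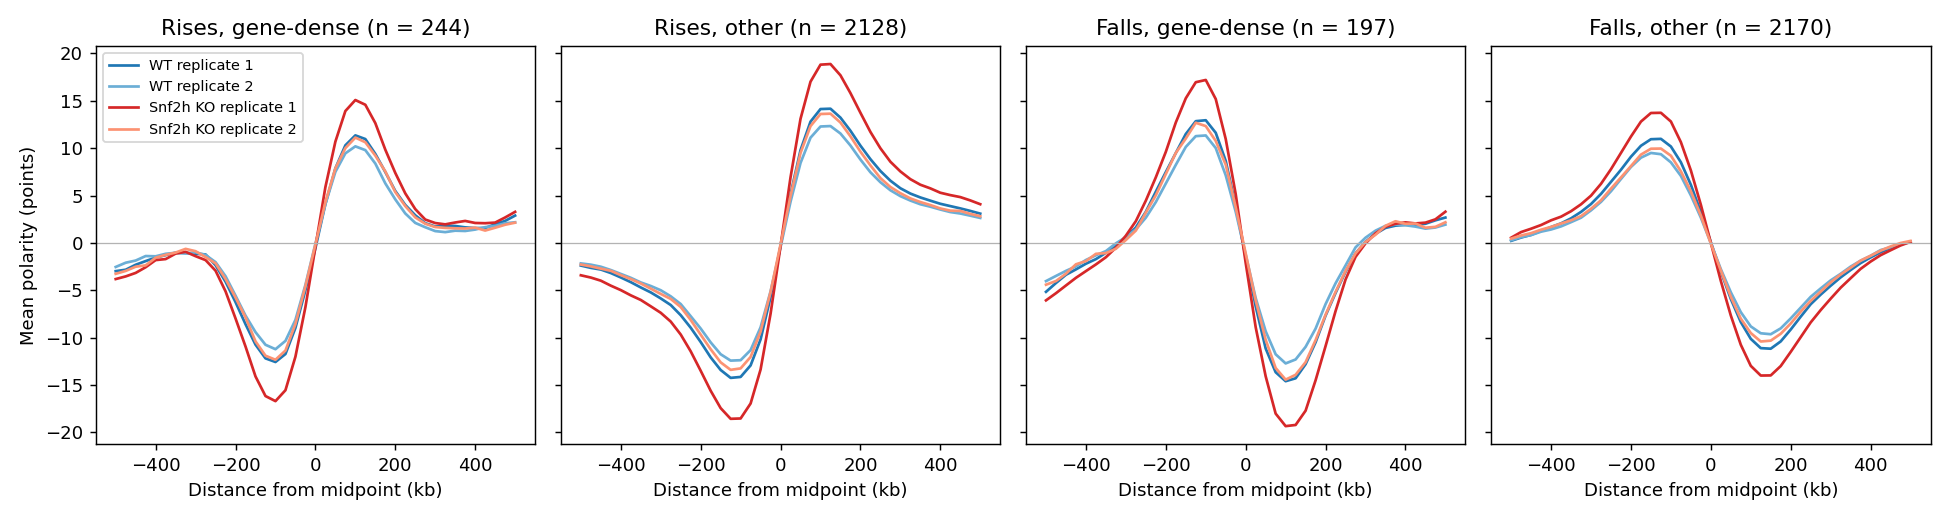
Mean polarity (points) in each library against distance from the midpoint (kb) of rises and falls called on the mean of the 4 libraries, for gene-dense and other windows. The gene-dense rise spans 21.4 to 31.8 points from its lowest to its highest mean value, less than the 24.7 to 37.4 points of other rises, and the gene-dense fall spans 24.1 to 36.5 points, more than the 19.1 to 27.7 points of other falls.

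Inside gene-dense domains, the windows at rises overlapped more genes than the windows at falls. The window at a rise midpoint overlapped 4.92 and 4.91 counted genes for WT and 5.08 and 5.16 for KO on average. At a fall midpoint it overlapped 2.87 and 2.89 for WT and 2.78 and 2.70 for KO. The difference was 2.20 ± 0.212 genes (SD, n = 4) and was above 0 in 4 of 4 libraries (exact sign-flip permutation p = 0.13). It was larger in KO by 0.346 genes, with a replicate SD of 0.0864, and the KO libraries both exceeded the WT libraries (exact permutation p = 0.33, the smallest possible). With 1 library left out the mean of the other libraries ranged from 2.12 to 2.27 genes. Over the window and its flanks, which the choice of members used, the libraries had means of 35.3 to 36.0 genes at rises and 35.1 to 35.7 at falls.

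Split by genes overlapping the window itself, the 44 spaced gene-dense windows with none had 0.116 rises and 3.08 falls per Mb as the mean of the 4 libraries. This class was small, with 1, 1, 0 and 0 rises and 13, 13, 15 and 12 falls. Windows with 6 to 25 genes of their own (403 windows) had 2.37 rises and 0.468 falls per Mb. Rise density climbed and fall density declined from class to class in each library. The SD declined too, from 18.9 points with no gene to 15.4, 13.3 and 11.5 points. Other windows showed the same order of rises, from 0.487 per Mb with no gene to 3.75 per Mb with 6 or more. In each class of own genes, gene-dense windows had fewer rises per Mb than other windows by this mean, and more falls. The top class ran from 6 to 25 genes in gene-dense windows but from 6 to 12 in other windows. There it held 100 windows with 4, 3, 1 and 5 falls, and KO replicate 2 had the reverse order of falls (0.449 against 0.517 per Mb). The contrast between gene-dense and other windows was not tested.

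**Figure D3:**
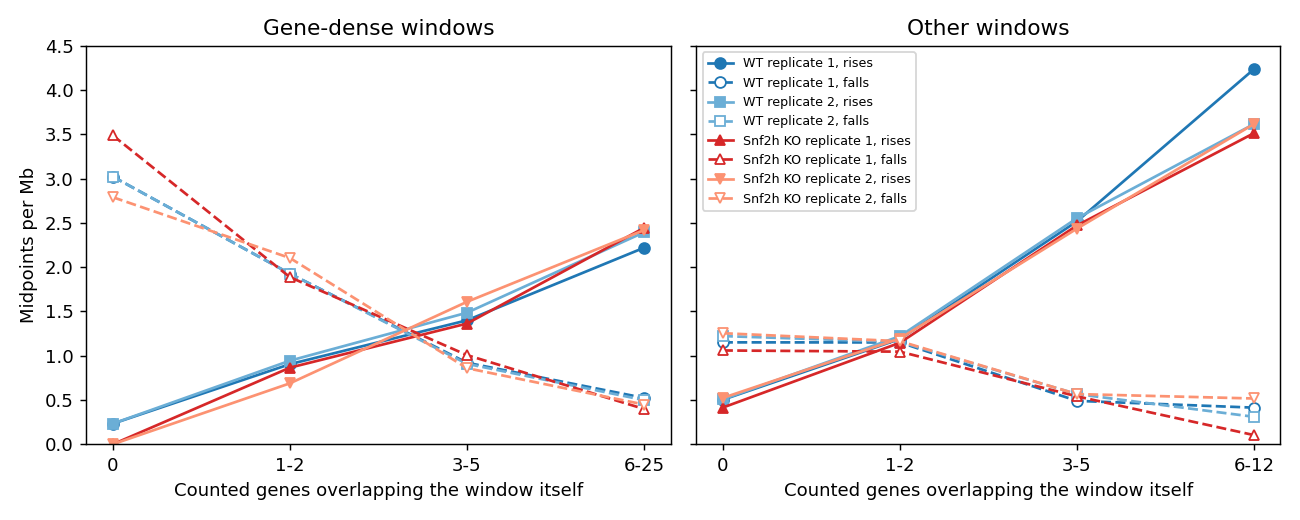
Midpoints of rises (solid lines) and falls (dashed lines) per Mb in each library against the number of counted genes overlapping the window itself, for gene-dense windows (left) and other windows (right). In gene-dense windows the mean over libraries goes from 0.116 to 2.37 rises and from 3.08 to 0.468 falls per Mb as own genes go from none to 6 or more.

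Gene strand showed no steady offset. Among gene-dense windows whose genes all lay on 1 strand, 201 plus and 203 minus, mean polarity over plus windows minus that over minus windows was 0.01 and -0.28 points for WT and -0.28 and -1.02 points for KO. Its mean of -0.393 points (exact sign-flip permutation p = 0.25, adjusted 0.481) was 0.917 points when 20 or more genes were asked for and -1.66 points with 30 or more. In other windows the offset was 1.41, 1.24, 2.11 and 1.53 points, above the gene-dense offset in each library. Strand was known for 80.2% of genes in the domains, and windows with any gene of unknown strand were left out. It was known for 0 of the 99 genes on chromosome 18, which thus added no window to this comparison.

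The edges of the domains were examined in 106 domains of at least 20 windows. Polarity was given the sign that points away from the domain, so that positive values mean polarity above 0 past the right edge and below 0 past the left edge. Up to 500 kb outside, this outward polarity was 6.81 and 5.92 points for WT and 9.17 and 6.61 for KO, mean 7.13 ± 1.41 (SD, n = 4; exact sign-flip permutation p = 0.13). It was positive in 4 of 4 libraries. Within 500 kb inside the edge it was 2.93, 2.33, 3.82 and 3.04 points, and from 525 to 1000 kb outside it was 3.98, 3.30, 5.74 and 4.04 points. Windows past the next gene-dense window were left out, so the edges counted went from 212 at the last gene-dense window to 160 at 425 kb and 142 at 1000 kb, and values at different distances come from different sets of edges. The crest lay 450 kb outside in the WT libraries and KO replicate 2 (9.85, 8.51 and 9.49 points) and 425 kb outside in KO replicate 1 (12.5 points). KO exceeded WT by 1.52 points up to 500 kb outside (replicate SD 1.36, exact permutation p = 0.667), and the genotypes overlapped. Fall frequency by depth was counted over the gene-dense windows of all 232 domains, short ones included. Falls were most frequent 125 to 250 kb from the edge, at 1.67 per Mb as the mean of the 4 libraries. They came to 1.16 per Mb nearer the edge and to 1.07 and 1.01 farther in.

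**Figure D4:**
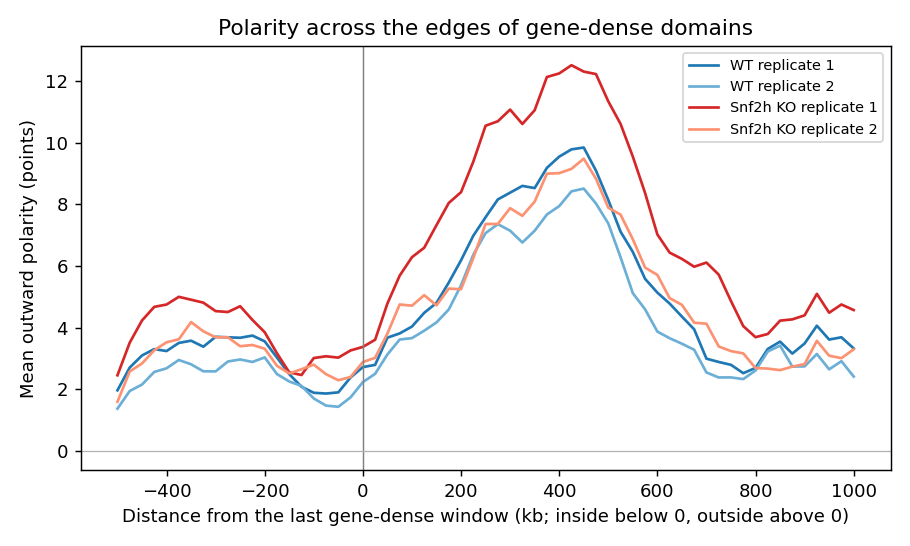
Mean outward polarity (points) in each library against distance from the last gene-dense window (kb), over 106 domains of at least 20 windows, with 212 edges at 0 kb and 142 at 1000 kb. Each library is above 0 outside and has its crest at 425 or 450 kb, between 8.51 and 12.5 points.

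Domains differed widely from each other. Among the 77 domains with at least 10 spaced windows, the SD as the mean of the 4 libraries ranged from 5.92 to 25.5 points with a median of 13.0 points. The KO libraries both exceeded the WT libraries in 44 of them. The same share was not computed for stretches of other windows, where KO replicate 1 also had the highest SD, at 19.6 points. The domain with the lowest SD was chr6:128750001-130050000, with the natural killer receptor genes Klrb1c and Klrb1b and the Clec2 genes of their ligand family. Its SD was 7.24, 3.84, 7.35 and 5.25 points, and its profile stayed mostly above 0, with means from 12.6 to 16.7 points. The highest was chr19:8300001-9375000, with the organic anion transporter genes Slc22a6 and Slc22a8 and the muscarinic receptor gene Chrm1. There the SD was 24.9, 21.8, 30.3 and 25.2 points, and each library had 2 rises and 0 falls.

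The longest domain, chr11:97050001-103475000, spanned 6.42 Mb with 247 counted genes, from Osbpl7, Tbx21 (the T cell factor T-bet) and Kpnb1 (importin beta) onward. Its SD was 11.7 and 11.2 points for WT and 16.2 and 12.3 points for KO, and it held 8, 11, 6 and 7 rises. On the profile averaged over the 4 libraries it held 6 rises. That at chr11:98225000-98450000 covered Cdk12, a transcriptional kinase, and Neurod2, a neuronal transcription factor, and climbed by 18.9 and 17.5 points for WT and 28.4 and 24.6 for KO. The next, at chr11:98650000-98875000, covered the thyroid hormone receptor gene Thra and the clock repressor gene Nr1d1. Another common rise, at chr11:100125000-100425000, covered the keratin genes Krt14, Krt15, Krt17 and Krt19 and climbed by 26.1 and 25.0 points for WT and 33.2 and 23.8 for KO. At the keratin genes KO replicate 2 lay below both WT libraries, whereas at Cdk12 and Neurod2 both KO libraries lay above them.

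**Figure D5:**
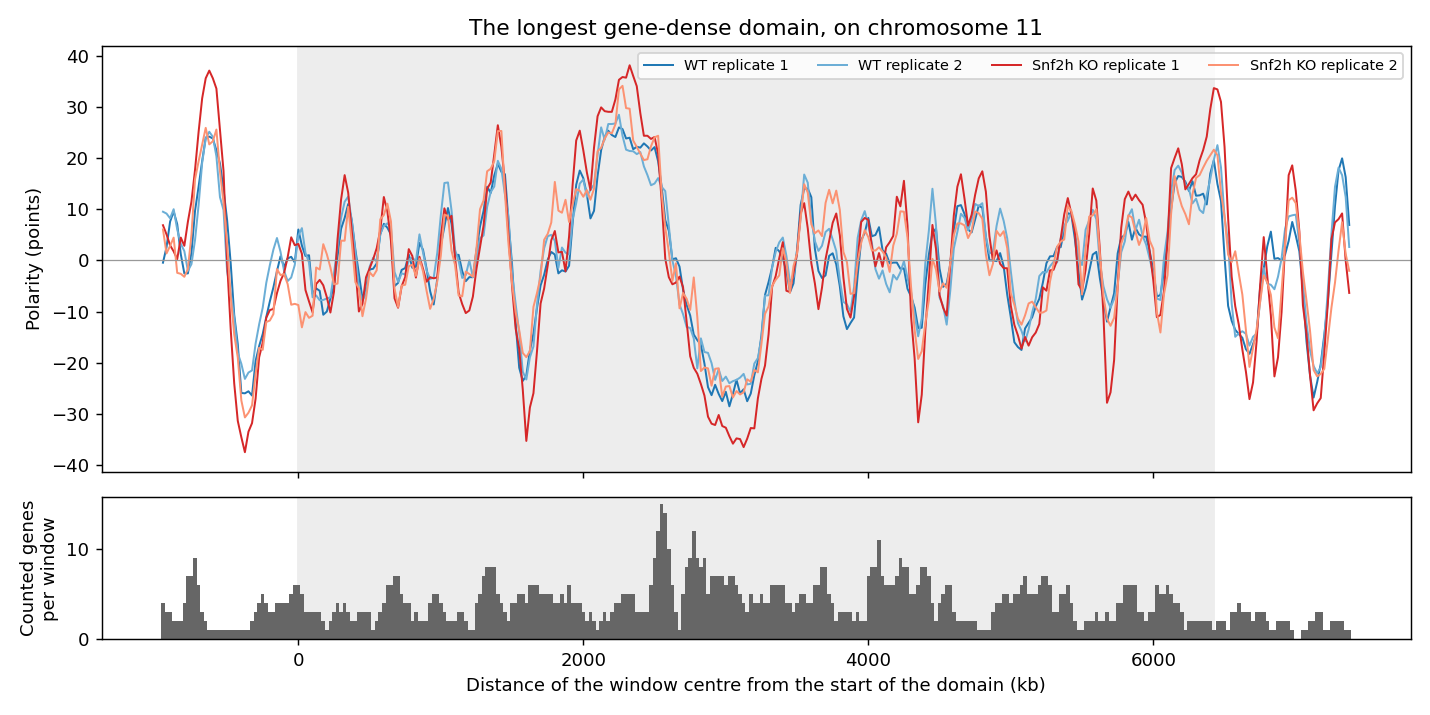
Polarity (points) in each library along the longest gene-dense domain and its surroundings (top) and counted genes per window (bottom), against distance of the window centre from the start of the domain (kb), with the domain shaded. The 4 libraries cross 0 many times within the 6.42 Mb, with SDs inside the domain between 11.2 and 16.2 points.

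Other domains stood out for the number of genes. At chr7:43050001-46500000, with up to 80 counted genes in a window and its flanks, the SD was 11.3, 11.1, 17.0 and 12.2 points. This domain begins with zinc-finger genes such as Zfp936 and Zfp715 and the sialic acid-binding lectin genes Siglecf and Siglecg. At chr11:68600001-71150000, with up to 77 genes, among them the non-muscle myosin gene Myh10 and the ribosomal protein gene Rpl26, it was 12.7, 11.6, 18.1 and 13.1 points. At chr17:33050001-36875000, which begins with Zfp genes, Morc2b and Actl9, it was 15.8, 13.0, 22.6 and 17.7 points. In each of these domains KO replicate 1 had the highest value, and the KO libraries both exceeded the WT libraries. The same order held at chr18:36350001-38425000, which begins with Cystm1, Pfdn1 (a prefoldin subunit) and the growth factor gene Hbegf, at 16.4, 13.2, 21.9 and 16.8 points, and at chr7:26900001-31450000, which begins with cytochrome P450 genes of the Cyp2 family and the oxygen sensor gene Egln2, at 12.3, 11.8, 18.3 and 14.3 points.

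WT and KO were then compared window by window with limma over all 23672 spaced windows. No gene-dense window of 1780 had a Benjamini-Hochberg limma adjusted p under 0.05, where the share over all windows was 0.0549%. By limma at an unadjusted threshold of 0.05, 150 gene-dense windows (8.43%) were called, against 12.2% of all windows, with 78 higher and 72 lower in KO. The median absolute difference was 3.91 points in gene-dense windows and 4.49 points in other windows. The count of adjusted calls depended on the KO libraries, and stayed at 0 without either WT library. Without KO replicate 2, 277 gene-dense windows were called (15.6%, against 20.2% of all windows), and without KO replicate 1, 48 were (2.70% against 5.79%). With fewer samples in the fit, these counts assume that a lone library varies like the other genotype's.

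The gene-dense windows with the lowest p, named here after their values were seen, lay on chromosomes 7, 1 and 3. At chr7:43300001-43400000, over Zfp715 and Siglecf, polarity was 17.7 and 15.1 points for WT and -7.39 and -6.29 points for KO. KO minus WT came to -23.2 points with an SE of 4.51 (limma adjusted p = 0.0576), and the genotypes lay on opposite sides of 0. At chr1:171600001-171700000, over the SLAM family receptor genes Ly9, Slamf7 and Cd48, polarity was -6.93 and 1.16 points for WT and 19.2 and 23.4 points for KO. KO minus WT came to 24.2 points with an SE of 4.71 (limma adjusted p = 0.0579). At these windows and at the next one named, the 6 nearest overlapping windows differed in the same direction. They share sequence with the window itself, so they are not independent values. The next window, chr7:43400001-43500000, adjoins the first and covers Siglecg and the natural killer granule gene Nkg7. Its polarity was 4.12 and 9.13 points for WT and -15.3 and -15.1 points for KO, with a limma adjusted p of 0.0707. After it came chr3:87600001-87700000 over Arhgef11, which activates the GTPase RhoA, with a difference of 19.0 points, and chr7:28000001-28100000 over Zfp850, the proteasome gene Psmc4 and Fcgbp, with 18.6 points (limma adjusted p = 0.131 and 0.137). All 5 of these windows passed 0.05 when limma was run as trended and robust (adjusted p from 0.000527 to 0.0124) or with a replicate block (from 0.000161 to 0.00710). After each library was divided by its SD, 4 of them passed. On the atanh scale none of them passed, each with a limma adjusted p of 0.385.

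Rises were compared the same way on the profile averaged over the 4 libraries, which gave 253 common rises in gene-dense windows of 2433 in all. Their positions run from the centre of the first window to that of the last. Their mean height was 25.2 and 22.2 points for WT and 33.4 and 24.7 points for KO, a difference of 5.36 points (replicate SD 4.62, n = 2 each, exact permutation p = 0.667). KO replicate 2 lay between the WT libraries, and at 135 of the 253 rises it lay below WT replicate 1. None of the 253 had an limma adjusted p under 0.05, where the share over all common rises was 0.904%. By limma at an unadjusted threshold of 0.05 there were 17 (6.72%), against 15.3% of all common rises. Of these 17, 16 were higher in KO, as were 345 of the 372 called over all common rises. Without KO replicate 2, 72 gene-dense rises were called (28.5%, against 42.9% of all common rises), and without KO replicate 1 there was 1 (0.395% against 0.740%). The KO libraries both exceeded the WT libraries at 108 rises (42.7%, against 40.9% over all common rises) and below them at 5 (1.98%, against 6.82%).

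The largest common rise, chr14:50675000-51125000, covered 18 genes, among them the DNA repair genes Parp2 and Apex1, the telomerase-associated Tep1 and Klhl33, whose upstream sequence is printed above. It climbed by 54.7 and 45.5 points for WT and 75.3 and 57.6 points for KO. KO minus WT came to 16.4 points with an SE of 7.13 (limma adjusted p = 0.235). That difference was 7.52 points without KO replicate 1 and 25.2 points without KO replicate 2. At chr4:88700000-88850000, which covered 21 genes around Gm13290 and the interferon gene Ifnz, the climb was 47.8, 46.4, 74.6 and 55.6 points (limma adjusted p = 0.205). The members of this cluster are similar in sequence, and how reads that fit several copies were placed is not given in the sources used here. In both rises each KO library lay above each WT library.

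At chr9:50525000-50925000, with the cytokine gene Il18, the succinate dehydrogenase gene Sdhd and the mitochondrial import gene Timm8b, the climb was 47.5, 41.6, 74.0 and 50.3 points (limma adjusted p = 0.206). At chr15:101000000-101400000, with the sodium channel gene Scn8a, the receptor genes Acvrl1 and Acvr1b and the nuclear receptor gene Nr4a1, it was 47.5, 43.4, 63.1 and 47.3 points (limma adjusted p = 0.488). KO replicate 1 was the highest library at both of these rises, and KO replicate 2 lay between the WT libraries at the second.

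The 5 common rises that were lower in both KO libraries were named after their values were seen. At chr7:43125000-43375000, over Zfp936, Zfp715 and Siglecf, the climb was 36.7 and 30.1 points for WT and 12.0 and 5.76 points for KO. KO minus WT came to -24.5 points with an SE of 7.13 (limma adjusted p = 0.0589). It overlaps the window with the lowest p described above, so these are not independent values. The others differed by -3.04 to -7.71 points with limma adjusted p from 0.597 to 0.853. They lay at chr2:163950000-164100000 over the adaptor gene Ywhab and the Hippo kinase gene Stk4, at chr7:19150000-19350000 over Snrpd2 and Opa3, at chr7:29775000-30075000 over a run of Zfp genes, and at chr10:77950000-78100000 over Aire, which regulates antigen display in the thymus, and Dnmt3l, a cofactor of DNA methylation.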

How the data were processed

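TrAEL-seq libraries of 2 WT and 2 Snf2h KO cultures were analysed from 1 table of 100 kb windows spaced 25 kb. Per the submitters' processing notes, Trim Galore 0.6.5 and Bowtie2 2.4.1 were used. Alignment by the authors, per the file headers, was to GRCm38 with an rRNA sequence, and each library was deduplicated. The deposited values are a score, taken from their range as a strand imbalance in percentage points. The program, the sign convention and any minimum of reads are not given in the sources used here, and 16 values were at a bound. Sign and scale bear on the direction of rises and on all heights.

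Genes came from the RefSeq table of GRCm38.p6, which gives no strand, so strand came from its promoter table. Histone genes were counted by their newer symbols, since the prefix Hist matched none. GC content of windows was not analysed here.

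SDs, slopes and limma fits used windows spaced 100 kb. Rises and falls used all windows, and stretches that run into a gap were left out. Tests of per-library values were exact, two-sided permutations over samples: 6 label orders for KO against WT (smallest p 0.33) and 16 sign patterns over 4 libraries (smallest p 0.13). Planned tests numbered 13 and were adjusted by Benjamini-Hochberg. Windows and common rises were tested with limma 3.58.1 (lmFit and eBayes, no block) in R 4.3.3, adjusted over all windows or rises, with a threshold of 0.05. Both fits were tested on simulated data. Python 3.11.15, numpy 2.4.6, pandas 2.3.3 and matplotlib 3.10.9 were used.

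Domains named were the 5 with most genes in a window and its flanks and the 3 longest, 6 in all since some met both, together with the extremes of SD, which were chosen afterwards. Rises named were the 5 largest, of which 1 is not reported here, and any past the limma threshold, with up to 8 overlapping genes each. The members and gene lists were chosen with earlier results of these data known. Alternatives changed the gene threshold, flank, families counted, scale, smoothing, minimum rise, window overlap, trimming, block and limma settings, and left out each library.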

Additional observations from a re-analysis of the deposited data

Results flagged for a closer look

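The X chromosome was outside the comparisons above. Its 45 spaced gene-dense windows with a value in all libraries had an SD of polarity of 18.2 and 15.1 points for WT and 25.3 and 20.3 points for KO, with a KO mean of 22.8 points above both WT libraries. The 1417 other X windows had 15.5, 13.5, 20.9 and 16.4 points. The SD on X was thus higher in gene-dense than in other windows in each library, as it was on chromosomes 13 and 14 but not over the autosomes together. The difference between X and autosomes was not tested.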

How the results depend on the processing

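Of 106 alternatives to the 12 planned per-library values that were not 0, 100 kept their direction, as did 46 of 48 omissions of a library and all 24 settings and 12 omissions for the comparisons added after seeing the data. None of these tests could reach 0.05 under any setting. With 20 or more genes the strand offset was 0.917 points and its KO minus WT difference 0.208. The KO minus WT difference of the slope ratio (log2) was -0.00266 on the atanh scale and from -0.0710 to 0.0885 with 1 library left out. KO minus WT rise steepness was -0.0156 after division by each library's SD. The KO minus WT difference of the excess of rises was -0.0672 per Mb with a running mean of 3 windows and -0.00927 at a minimum of 0.5 SD. In gene-dense windows KO minus WT rises were -0.0736 per Mb with 3 windows and 0.249 at 15 points. The causes were not tested.

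The count of gene-dense windows called, 0 with limma, was 1 with Olfr and Vmn genes counted (0.0459%, against 0.0549% of all windows), 4 after scaling (0.225% against 0.380%), 17 with limma's trend and robust options (0.955% against 1.28%), 3 at an adjusted p under 0.1 (0.169% against 0.228%), 2 after trimming (0.115% against 0.104%) and 0 to 277 with 1 library left out. The count of rises called was 1 with 20 or more genes (0.244%, against 0.904% of all common rises), 9 after scaling (3.53% against 13.5%), 1 with trend and robust options (0.395% against 1.27%), 2 at an adjusted p under 0.1 (0.791% against 2.18%), 1 at 0.5 SD (0.280% against 0.391%) and 0 to 72 with 1 library left out. Fitted with a replicate block, 29 windows (1.63%, against 2.66% of all windows) and 15 rises (5.93% against 13.7%) were called, and 27 (1.52% against 2.76%) and 8 (3.14% against 12.7%) with scaling too. The numbers were not taken as pairing, since there are only 2 pairs and the labels tie them to nothing: deviations of same-numbered libraries correlated at 0.242 over gene-dense windows and 0.0266 after scaling. Of 70 alternatives for the 5 largest rises and the 5 windows with the lowest p, 33 brought an adjusted p under 0.05 and none turned the direction. Depth is unknown, and 2 libraries per genotype limit every KO comparison.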
